A study of Mus musculus with 6 samples.

Results

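The Hox genes of the 4 mouse clusters Hoxa, Hoxb, Hoxc and Hoxd were followed in 344SQ cells, a lung adenocarcinoma line, with forced expression of the miR-200b-200a-429 cluster and with a control vector. A gene was taken as a member if its symbol was Hoxa, Hoxb, Hoxc or Hoxd followed by a number, and members were chosen by this symbol alone, from probe sets annotated to a single gene. The RefSeq gene table lists 39 such genes, and 33 of them were measured, out of 18193 genes in all: 9 of Hoxa, 9 of Hoxb, 7 of Hoxc and 8 of Hoxd. The others had no probe set of their own and were not analysed as members. Of these, Hoxd4 and Hoxb8 share probe sets with another Hox gene, which are reported below. Each gene was represented by the brightest of its probe sets over the 6 arrays, out of 48 Hox probe sets.

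The cells were grown from a subcutaneous tumour of a mouse with the alleles p53R172H∆g/+ and K-rasLA1/+, so both groups carry a mutant p53 allele and an activated K-ras allele. The miR-200 group held 3 cultures of a pool transduced with a lentivirus for the microRNA cluster, called here miR-200 A, B and C, and the control group 3 cultures of a pool with the control vector, called control A, B and C. Both pools were selected with puromycin and carry GFP, and both come from the line of 1 animal. Nothing in the labels gives separate transductions within a group. The p-values therefore measure only the spread between cultures, and a stable difference between the pools cannot be told apart from an effect of the microRNAs.

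Hox genes encode homeodomain transcription factors that give cells their position along the body axis. The genes lie in a row in each cluster, and members with the same number in different clusters, called paralogues, descend from one ancestral gene. Low numbers are used towards the head and high numbers towards the tail and the tips of the limbs, Polycomb proteins keep unused genes silent, and retinoic acid is a classic activator of the low-numbered genes. Hoxa5 is the member best known in the lung, where the mouse gene is needed for normal development of the airways.

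The microRNAs forced on in these cells are shown because their seeds define which transcripts they can pair with. The mature sequences are from RefSeq (GRCm38.p6), 5′ to 3′, with the seed (bases 2 to 8) in capitals. They lie on the minus strand of chromosome 4, at chr4:156055685-156055706, chr4:156054911-156054932 and chr4:156053916-156053937 in the order printed. The 3 RNAs themselves were not measured on these arrays.
mmu-miR-200b-3p: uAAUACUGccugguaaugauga
mmu-miR-200a-3p: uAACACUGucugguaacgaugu
mmu-miR-429-3p: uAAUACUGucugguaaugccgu
The first and the third share the seed AAUACUG, and miR-200a has AACACUG. Target sites in Hox transcripts were not searched.

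Values are log2 signals after quantile normalization, and differences are miR-200 minus control on that log2 scale, each followed by its standard error (SE) from limma. No detection calls were used, so the highest value of a bacterial trp control on any array, 5.28, served as a gauge of background. The signal of one probe set cannot be set against that of another, and only the side of this gauge is compared between genes. Of the 33 Hox genes, 12 lay above the gauge on all 6 arrays (36.4%, against 68.3% of all 18193 genes), 7 on some arrays and 14 on none (42.4%, against 21.2% of all genes). A gene below the gauge has only an upper bound, so a change within that range would not be detectable here.

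The 12 genes above the gauge on all 6 arrays were Hoxa3, Hoxa5, Hoxa7, Hoxa9, Hoxa11, Hoxb1, Hoxb3, Hoxc6, Hoxc9, Hoxd3, Hoxd8 and Hoxd13. This holds for the brightest probe set of each. A place above the gauge does not by itself show expression. Of 4 endothelial markers, Tek and Cdh5 also lay above it on all 6 arrays, and Pecam1 and Kdr on none. Every other probe set of Hoxa9, Hoxb3, Hoxc6 and Hoxd8 lay under the gauge on all 6 arrays. By cluster they made up 5 of 9 Hoxa, 2 of 9 Hoxb, 2 of 7 Hoxc and 3 of 8 Hoxd genes. By position they made up 4 of 7 genes of paralogue groups 1 to 3, 4 of 12 of groups 4 to 8 and 4 of 14 of groups 9 to 13. The 14 genes below it on every array included 6 of the 9 Hoxb genes, namely Hoxb2, Hoxb5, Hoxb6, Hoxb7, Hoxb9 and Hoxb13, the last known from prostate and tail development. Hoxa2, which patterns the branchial arches, and Hoxd10, a limb and spinal cord gene, were also below it on all arrays.

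**Figure D1:**
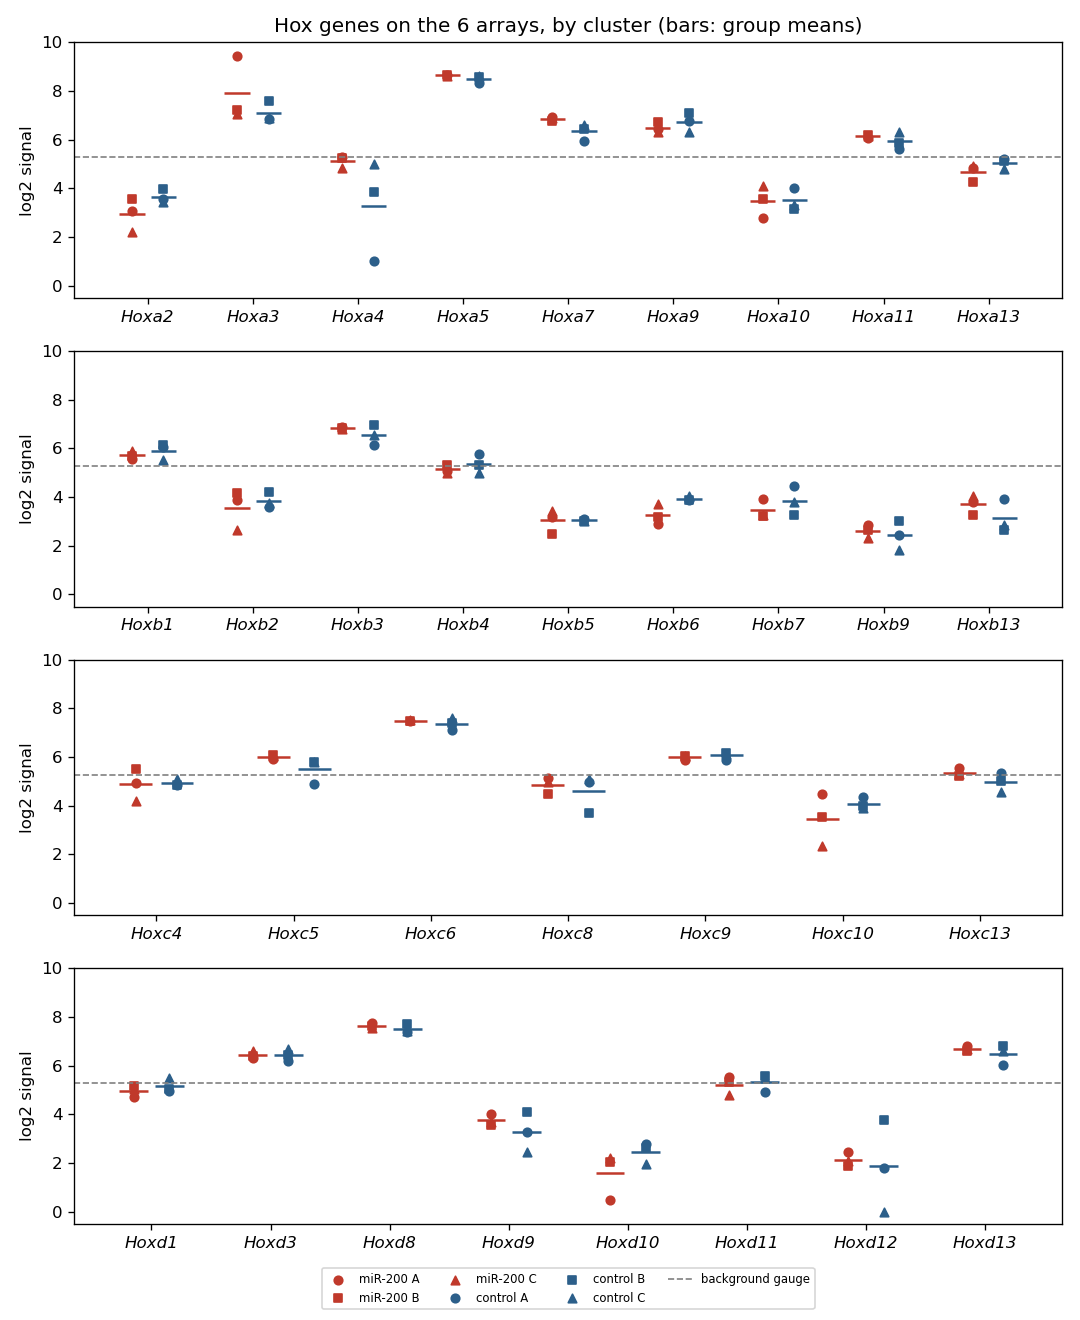
Log2 signal (y axis) of the 33 Hox genes, 1 panel per cluster, with miR-200 cultures in red left of control cultures in blue. Each point is 1 array, the short bars are group means, and the dashed line is the background gauge at 5.28. Group means lie close together for most genes, and the low control A value of Hoxa4 (1.01, far under the gauge) and the high miR-200 A value of Hoxa3 (9.46) stand out.

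No Hox gene passed the test between miR-200 and control cells, and no Hox probe set did (limma, Benjamini-Hochberg adjustment over 45037 probe sets). The count was 0 of 33 genes at an adjusted p under 0.05, against 172 of 18193 genes on the whole array (0.945%, or 0.275% higher and 0.671% lower). At that rate a set of 33 genes would usually hold no call, so the count does not set the Hox genes apart. At an unadjusted p under 0.05, 2 Hox genes were found, Hoxa7 higher and Hoxb6 lower, against 14.8% of all genes, 6.35% higher and 8.47% lower. The lowest adjusted p of any member was 0.306. The difference was above 0 in 16 members and below 0 in 17, with a median of -0.0015 for the Hox genes and 0.0014 for all genes. These counts include members under the gauge, whose sign gives no direction. Among the 16 members with a group mean above the gauge, the difference was above 0 in 10 and below 0 in 6. Their median was 0.14, against 0.0077 for all such genes. Control A was the lowest array in 11 of these 16 (68.8%, against 19.2% of all such genes). In the fit without control A, Hoxc6 and Hoxd13 moved to -0.010 and -0.0066, and Hoxc13 from 0.39 to 0.58. The other members above 0 among these 16 kept a smaller difference above 0. The 6 below 0 stayed below it. Why control A read low was not tested. The median size of the difference, sign ignored, was 0.26 for the Hox genes and 0.25 for all genes. In bulk RNA, fewer cells that express a gene and less of its RNA per cell cannot be told apart.

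The groups did not overlap in 4 members, against 23.5% of all genes. Hoxa5, Hoxa7 and Hoxc5 were the 3 of the 16 members whose brighter group mean lay above the gauge, against 28.0% of all such genes. In each of the 3 the miR-200 values were the higher ones. The fourth, Hoxb6, lay under the gauge on all 6 arrays. None of the 4 passed the adjusted threshold.

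Hoxa7, a trunk patterning gene also active in blood progenitors, had log2 signals of 6.93, 6.77 and 6.90 in miR-200 A, B and C, against 5.96, 6.45 and 6.62 in control A, B and C. All 3 miR-200 values were higher than every control value, and control A was the lowest of all. The difference was 0.52 ± 0.20 (limma, adjusted p = 0.345), with a 95% interval from 0.011 to 1.03. Without control A it was 0.33.

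The start region of Hoxa7 is printed here because this is the Hox gene above the gauge with the lowest adjusted p. It covers 250 bases before and 50 after the start, at chr6:52218524-52218823 on the minus strand (RefSeq, GRCm38.p6), with each CG in capitals.
Hoxa7: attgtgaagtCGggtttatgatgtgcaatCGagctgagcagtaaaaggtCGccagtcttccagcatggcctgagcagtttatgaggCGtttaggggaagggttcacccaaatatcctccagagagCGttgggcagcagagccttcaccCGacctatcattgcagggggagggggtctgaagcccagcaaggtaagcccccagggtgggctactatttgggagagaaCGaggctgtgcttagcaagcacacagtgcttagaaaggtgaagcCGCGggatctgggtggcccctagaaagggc
This window holds 9 CG pairs. The table has windows for 19 of the 33 Hox genes, 21 windows in all, with a median of 15 CG pairs and a range from 4 to 45. The other 32830 windows had a median of 7. A count of 10 or more, on 1 strand since CG reads the same on both, was found in 71.4% of the Hox windows and 43.5% of the others. Dense CG pairs at the start are a known feature of genes that Polycomb proteins hold silent. DNA methylation and chromatin were not measured.

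Hoxc5, a trunk gene, had log2 signals of 5.92, 6.09 and 6.03 in miR-200 A, B and C, against 4.89, 5.78 and 5.80 in control A, B and C. The groups did not overlap, with control B and C just under the miR-200 values and control A the only value under the gauge. The difference was 0.52 ± 0.28 (limma, adjusted p = 0.475), and without control A it was 0.22. Its other 2 probe sets were under the gauge on every array.

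The brightest probe set of Hoxa5, the gene of airway development, was well above the gauge. It read 8.66, 8.67 and 8.61 in miR-200 A, B and C, against 8.35, 8.59 and 8.61 in control A, B and C. The groups nearly touched, since miR-200 C and control C were equal to 2 decimals. The difference was 0.13 ± 0.13 (limma, adjusted p = 0.698), with a 95% interval from -0.19 to 0.46. Without control A it was 0.053. The dimmer probe set of Hoxa5 averaged 5.24 in miR-200 cells and 5.20 in control cells, both under the gauge. A level of Hoxa5 well above background thus rests on the brighter probe set alone.

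Hoxb6, another trunk gene, read 2.91, 3.18 and 3.72 in miR-200 cultures A, B and C, against 3.88, 3.86 and 4.03 in control cultures A, B and C. This gene, described because it had the lowest adjusted p of all members, was the only member with lower miR-200 values that did not overlap the control values. It did not pass (limma, adjusted p = 0.306), and no difference is given because both groups lay under the gauge.

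The brightest probe sets of the other clusters showed close group means. Hoxb3, which acts with its paralogue Hoxa3 in the neck and pharynx, read 6.87, 6.83 and 6.79 in miR-200 A, B and C, against 6.16, 6.94 and 6.55 in control A, B and C. The groups overlapped, with a difference of 0.28 ± 0.22 (limma, adjusted p = 0.643), which was 0.080 without control A and 0.47 without control B. Hoxc6, a trunk gene, read 7.48, 7.47 and 7.50 in miR-200 A, B and C, against 7.09, 7.40 and 7.59 in control A, B and C.

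The control values of Hoxc6 lay on both sides of the miR-200 values, with a difference of 0.12 ± 0.17 (limma, adjusted p = 0.788). Hoxd8, a trunk gene, read 7.74, 7.64 and 7.55 in miR-200 A, B and C, against 7.40, 7.70 and 7.41 in control A, B and C. Its groups overlapped too, with a difference of 0.14 ± 0.15 (limma, adjusted p = 0.718).

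Among the tail-side genes above the gauge, none had groups that did not overlap. Hoxa9, a regulator of blood stem cells, averaged 6.49 ± 0.20 in miR-200 cells and 6.73 ± 0.39 in control cells (SD, n = 3 each). Hoxa11, needed in limb, kidney and uterus, averaged 6.16 ± 0.06 in miR-200 cells and 5.94 ± 0.35 in control cells. Hoxd13, a digit and hindgut gene, averaged 6.69 ± 0.11 in miR-200 cells and 6.48 ± 0.40 in control cells.

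Hoxc9, a thoracic and motor neuron gene, averaged 5.99 ± 0.08 in miR-200 cells and 6.06 ± 0.15 in control cells. On the head side, Hoxb1, a hindbrain gene, averaged 5.72 ± 0.16 in miR-200 cells and 5.90 ± 0.34 in control cells. Hoxd3, a neck vertebra gene, had the closest means, 6.44 ± 0.16 in miR-200 cells and 6.44 ± 0.26 in control cells. The adjusted p of these 6 genes ranged upwards from 0.687 for Hoxa11.

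The size of change that the arrays could still hold was read from the 95% intervals of the differences, taken gene by gene without adjustment. In 10 of the 12 genes above the gauge on all arrays the interval lay inside -1 to 1 on the log2 scale, against 74.7% of the 12421 genes of the whole array with such signals. The exceptions were Hoxa7, whose interval ended at 1.03, and Hoxa3, whose interval ran from -0.95 to 2.54. Over all 33 members the interval lay inside those limits in 17, against 59.7% of all genes. Both figures include genes under the gauge, where a narrow interval does not bound a change in RNA. Among the 16 members with a group mean above the gauge the count was 13, against 71.6% of all such genes. The widest intervals belonged to genes under the gauge on most arrays, such as Hoxa4 and Hoxd12.

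**Figure D2:**
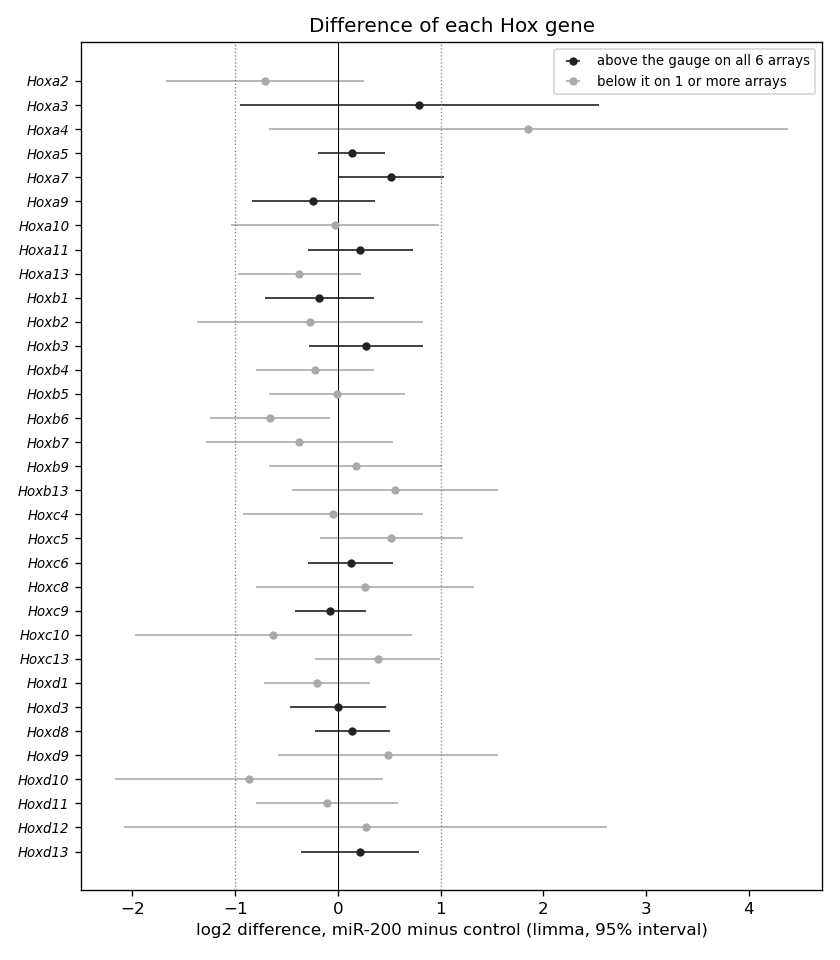
Log2 difference between miR-200 and control cells (x axis) for the 33 Hox genes, listed by cluster. Points are limma estimates with 95% intervals, black for genes above the gauge on all 6 arrays and grey for the others, and dotted lines mark -1 and 1. The intervals of Hoxa7 and Hoxb6 leave out 0 before adjustment for the number of tests.

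Among the Hox genes above the gauge on all arrays, one control culture often read lowest. Of these 12 genes, 10 had their lowest value on control A (83.3%, against 19.1% of the 12421 genes with such signals), and Hoxa9 and Hoxb1 had theirs on control C. Over all 33 members control A was lowest in 12 (36.4%, against 18.8% of all genes), the others being Hoxa4 and Hoxc5, and highest in 4 (12.1%, against 17.4% of all genes). The deviation of control A from the median of the 6 arrays was -0.73 for Hoxa7, -0.65 for Hoxb3, -0.62 for Hoxd13 and -0.49 for Hoxa11. The SD of the control group was the larger one in 11 of the 12 genes, against 43.6% of the 12421. For these 12 genes the median SD was 0.092 in miR-200 cells and 0.34 in control cells, and for all genes with such signals it was 0.20 in miR-200 cells and 0.19 in control cells. This pattern was noticed after the values were seen, the genes share the arrays, and its cause was not tested.

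**Figure D3:**
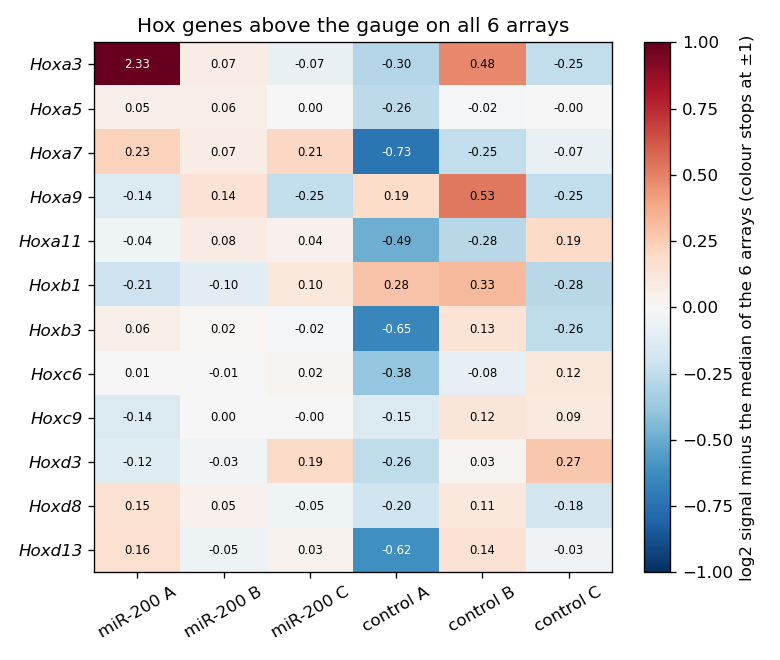
Log2 signal minus the median of the 6 arrays for the 12 Hox genes (rows) above the gauge on every array, in miR-200 and control cultures (columns). Red is above and blue below that median, with the number in each cell. The control A column is blue in 10 of 12 rows, and Hoxa3 on miR-200 A reads 2.33 above its median.

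Hoxa4, a neck patterning gene, is described for its spread. It read 5.31, 5.26 and 4.84 in miR-200 A, B and C, against 1.01, 3.83 and 4.99 in control A, B and C, so 1 of 6 values was above the gauge. Both group means lay under the gauge, so no difference is given, and the other probe set of the gene was under it on every array.

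Hoxa3, which builds the thymus and parathyroid from the pharynx, had the widest range of the genes above the gauge and is described for that reason. It read 9.46, 7.20 and 7.06 in miR-200 A, B and C, against 6.83, 7.61 and 6.88 in control A, B and C. Within each group the highest value came from a culture, miR-200 A or control B, that stood apart on the whole array. The difference was 0.79 ± 0.70 (limma, adjusted p = 0.668), and it was 0.019 without miR-200 A, 1.22 without miR-200 C and 0.27 without both miR-200 A and control B. Of its other 3 probe sets, only one lay above the gauge on all arrays, at 5.72, 5.42 and 5.93 in miR-200 A, B and C, against 5.52, 5.29 and 5.78 in control A, B and C. There miR-200 A was not the highest value, and control B was the lowest.

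On the same 2 cultures the median of 13 genes of dividing cells was 8.65 for miR-200 A and 8.61 for control B, against 11.43 to 11.54 on the other 4. Of 5 leukocyte markers measured, 4 lay above the gauge on all arrays and their summed linear signal, with the fifth, ranged from 1963 to 5270 in miR-200 cells and from 1818 to 1983 in control cells. The macrophage marker Cd68 read 8.98 on miR-200 A and 8.87 on control B, against 5.73 to 6.81 elsewhere. Cd14, a monocyte marker, was highest on miR-200 A, at 11.86, but lowest on control B, at 9.54. Csf1r, a macrophage receptor, read 9.92 on miR-200 A and 9.40 on control B, within the range of the other cultures of each group. The pan-leukocyte gene Ptprc read 5.29 to 5.91 over all arrays. Their part in the Hoxa3 values was not tested. As a check of the label, Cdh1, Epcam, Krt8, Krt18 and Krt19 of 6 epithelial markers were above the gauge on all arrays. Of the 5 lung markers, Nkx2-1, Foxa2 and Sftpb were above it on all arrays, but Sftpc, which marks alveolar cells, was below it on all. Sftpa1, another surfactant gene, was above the gauge on 1 array, with both group means under it. The surfactant gene Sftpb fell to 6.57, 6.55 and 6.51 in miR-200 A, B and C, against 12.38, 13.01 and 12.34 in control A, B and C, 65.6-fold lower (limma, adjusted p = 0.00249). The sixth epithelial marker, the tight junction gene Cldn7, was 18.9-fold higher in miR-200 cells (limma, adjusted p = 0.0162), so these 2 markers differ between the groups. Of 8 stroma markers, Col1a1, Col1a2 and Lum were above the gauge on all arrays, Thy1 and Pdgfra on some, and Col3a1, Pdgfrb and Dcn on none. Of 4 endothelial markers, Tek and Cdh5 were above the gauge on all arrays, and Pecam1 and Kdr on none.

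Probe sets of a gene disagreed in sign in 6 of the 11 Hox genes with several, Hoxa4, Hoxa9, Hoxa10, Hoxb4, Hoxc6 and Hoxd13, without a call in any, and the sign of a probe set under the gauge gives no direction. The 3 probe sets annotated to a pair of Hox genes, Hoxd4 with Hoxd3 or Hoxb8 with Hoxb7, lay under the gauge on all 6 arrays (limma, lowest adjusted p = 0.761). The antisense RNA Hoxd3os1 read 3.88, 4.58 and 3.67 in miR-200 A, B and C, against 5.39, 4.25 and 4.72 in control A, B and C, with both means under the gauge (limma, adjusted p = 0.455). The antisense RNAs Hoxa11os and Hoxb5os lay under the gauge on all 6 arrays. The miR-200 values of Hoxa11os were lower and did not overlap the control values (limma, adjusted p = 0.380).

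Genes that work with or on the Hox clusters were taken as lists. Of 8 measured Hox cofactors (Pbx, Meis and Pknox genes, whose proteins bind DNA beside Hox proteins), 0 rose and 0 fell in limma, against 0.945% of all genes called. At an unadjusted p under 0.05 there was 1, against 14.8% of all genes, and the median difference was -0.056. Pbx2 was the single one with groups that did not overlap. It read 8.22, 8.15 and 8.22 in miR-200 A, B and C, against 8.97, 8.81 and 8.79 in control A, B and C, a difference of -0.66 ± 0.12 (limma, adjusted p = 0.102).

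Of 33 measured Polycomb and Trithorax genes, which silence or keep active the clusters, 0 passed in limma, against 0.945% of all genes. Before adjustment, p was under 0.05 for 7 with higher and 1 with lower miR-200 signal, against 6.35% and 8.47% of all genes. Their median difference was 0.20, above 0 in 24 and below in 9, against a median of 0.0014 for all genes. Groups did not overlap in 11 of them, 9 with higher and 2 with lower miR-200 values, against 11.4% and 12.1% of all genes. Control B was the lowest array in 13 of the 33 (39.4%, against 18.2% of all genes) and miR-200 C the highest in 13 (39.4%, against 15.98%), and the part of these arrays in the result was not tested. Eed, a core subunit of Polycomb repressive complex PRC2, read 11.39, 11.46 and 11.50 in miR-200 A, B and C, against 10.90, 10.88 and 10.87 in control A, B and C.

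The difference of Eed was 0.57 ± 0.11 (limma, adjusted p = 0.120). Pcgf6, Bmi1 and Pcgf5, ring finger subunits of the other Polycomb complex, PRC1, differed by 0.73 ± 0.23, 0.61 ± 0.21 and 0.57 ± 0.17 (limma, adjusted p = 0.264, 0.294 and 0.250). Mllt3, a partner of the histone methyltransferase Dot1l in transcription elongation, differed by -0.85 ± 0.19 (limma, adjusted p = 0.153).

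Of 16 measured retinoic acid genes 0 passed in limma, against 0.945% of all genes. At an unadjusted p under 0.05 there was 1, against 14.8% of all genes, and the median difference was -0.091. Aldh1a2, the enzyme that makes retinoic acid in the embryo, read 8.39, 7.53 and 7.31 in miR-200 A, B and C, against 5.38, 5.49 and 5.97 in control A, B and C. Its groups lay far apart, with a difference of 2.13 ± 0.34, but it missed the threshold (limma, adjusted p = 0.0766). Cyp26a1, which breaks retinoic acid down, differed by -0.34 ± 0.16 (limma, adjusted p = 0.416).

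Of 9 ParaHox and related homeobox genes, 1 fell and 0 rose in limma, against 0.671% lower and 0.275% higher of all genes, with a median difference of -0.028. That gene was Pdx1, the pancreas and duodenum factor of the ParaHox set. It read 4.19, 4.37 and 4.94 in miR-200 A, B and C, against 10.26, 8.81 and 10.26 in control A, B and C, and was at least 22.6-fold lower (limma, adjusted p = 0.0179). Cdx2, an intestinal factor and a direct activator of Hox genes in the mouse embryo, read 10.51, 10.00 and 10.01 in miR-200 A, B and C, against 11.05, 10.89 and 10.99 in control A, B and C. Its groups did not overlap, with a difference of -0.80 ± 0.18 (limma, adjusted p = 0.157).

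A list of 23 genes near the clusters had no call in limma either, against 0.945% of all genes. Each lies within 5 coding genes of a Hox gene in the RefSeq gene order. The list was chosen by name and does not hold every gene in that range. Before adjustment, p was under 0.05 for 2 with higher and 1 with lower miR-200 signal, against 6.35% and 8.47% of all genes. Of the 23 genes, 19 were above the gauge on all 6 arrays, against 12 of 33 Hox genes. Their median difference was -0.13. Hibadh, 2 coding genes from Hoxa13, differed by -0.41 ± 0.15 (limma, adjusted p = 0.333). Hnrnpa1, which encodes an RNA-binding protein and lies near Hoxc4, differed by 0.35 ± 0.14 (limma, adjusted p = 0.352). Mtx2, beside Hoxd1, differed by -0.29 ± 0.14 (limma, adjusted p = 0.421).

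**Figure D4:**
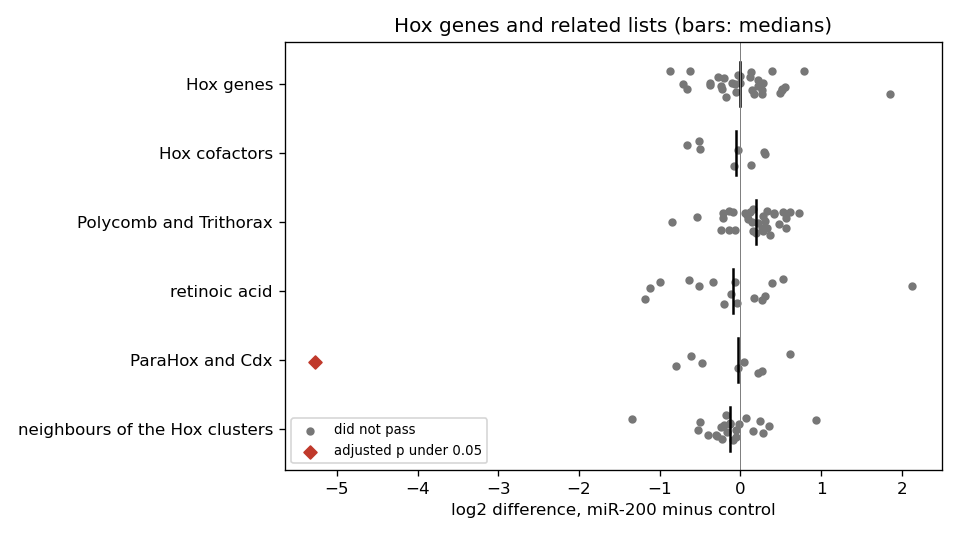
Log2 difference between miR-200 and control cells (x axis) for the Hox genes and 5 related lists, 1 point per gene. Bars are medians, and the red diamond is the single gene with an adjusted p under 0.05, Pdx1, whose plotted place uses a miR-200 mean under the gauge and so stands for at least 22.6-fold lower. The 16 Hox genes with a group mean above the gauge lie between -0.24 and 0.79.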

How the data were processed

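RNA of 3 miR-200 and 3 control cultures was hybridized as biotin-labelled cRNA to Affymetrix mouse arrays, per the labels' protocols. The authors deposited log2 signals, 1 per probe set and array; the log base was read from the values, while the summarisation and normalization of probe signals are not given here in any label or header. The 45101 probe sets were quantile normalized, the 64 controls left out, and 45037 tested with limma 3.58.1 in R 4.3.3 (lmFit, eBayes, two-sided, no covariate; adjusted p under 0.05). Of these, 34945 had 1 gene symbol, 932 several and 9160 none listed; symbols were updated through the RefSeq table of GRCm38.p6 for 34741.

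Precision is limited by 3 arrays per group. The fit was tested on simulated data, with a pass required only at a small uniform spread. The pass asked for large shifts to be found, little bias and few false calls. It does not show what the fit would find at the spread of the Hox genes. The simulation was also run at the real spread of the probe sets, without a required pass, and its result is not given here. Members, lists and tests were chosen with earlier results of these data known. Named genes are members with separated groups and a mean above the gauge, the brightest of each cluster, and in each related list the called genes and up to 4 others with separated groups; Hoxa3, Hoxa4, Hoxb6, Eed, Cd68, Cd14, Csf1r, Sftpb, Cldn7 and the means of other members were added after values were seen. Alternatives covered normalization, dim probe sets, probe-set means, variance model, weights, a block and left-out arrays.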

Additional observations from a re-analysis of the deposited data

How the results depend on the processing

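The count of Hox genes past the threshold was 0 as deposited, centred on array medians, without the dimmest 40% of probe sets (13 Hox genes left), with a variance trend, with weighted arrays, averaging the probe sets of each gene, with the replicate block, without each array and without both arrays that stand apart. The lowest adjusted p of any member in any of these limma fits was 0.163. The sign of the difference held in every fit without 1 array for 22 members and changed in 11, among them Hoxc6 (-0.01 without control A). Calls among all genes moved more, from 172 to 476 without the dimmest 40%, 494 with the variance trend, 606 with weighted arrays and 58 with both deviating arrays left out, and they ranged from 16 to 185 without 1 array, lowest without control A. With 25, 31, 28 and 86 calls, leaving out miR-200 B, miR-200 C, control C and control B also lowered the count. With the letters as a replicate block, 0 genes passed in limma, against 1720 at an unadjusted p under 0.05; across the brighter 60% of probe sets, deviations from the group means correlated within letters A, B and C at -0.58, -0.67 and 0.43, so the letters are not shown to pair the cultures. The causes were not tested. Of the 33 Hox genes, 14 lay under the gauge on all 6 arrays and only 16 had a group mean above it, which limits what the others can show.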
